A study of Coturnix japonica with 12 samples.

Results

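The secretory pathway and ER folding genes described here are 57 of the 16013 genes in the deposited table. Of these, 12 were listed by name and 45 were found by their symbol (the PDIA, SSR, SPCS, SRP and COP families, and the SEC genes numbered from SEC11 to SEC63 that serve protein entry into or exit from the ER). RNA was sequenced from whole Müllerian ducts of female Japanese quail (Coturnix japonica) embryos that were grown in surrogate eggshells. The 12 samples fall into 4 groups of 3. Oil left and oil right are the left and the right ducts of embryos given sesame oil from embryonic day 3 to embryonic day 12, and EE left and EE right are the left and the right ducts of embryos given ethynylestradiol in sesame oil over the same days. All groups thus share the eggshell culture and the oil vehicle, and no untreated duct was analysed here. The labels give no dose, and they do not say whether a sample is 1 embryo or a pool or whether replicates came from separate embryos, so p-values measure the spread between these samples, which may be technical. Nor do they say whether left and right samples of the same number came from the same embryos.

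Proteins that leave a cell or sit in its membranes are made at the endoplasmic reticulum (ER). The signal recognition particle brings the ribosome to the SEC61 channel, signal peptidase removes the leading peptide, and chaperones and disulfide isomerases in the ER lumen fold the chain. COPII coats then carry cargo to the Golgi and COPI coats return escaped proteins and membrane. Several of these genes are induced together when unfolded protein gathers in the ER, through the transcription factor XBP1 among others. In birds the left Müllerian duct becomes the oviduct, whose gland cells secrete egg white under oestrogen, and the right duct of females stops growing and regresses. Ethynylestradiol (EE) is a synthetic oestrogen.

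Total counts ran from 13303458 to 23621985 per sample. Levels are given throughout as FPKM scaled by TMM (fragments per unit of exon length and of library size, with library sizes set by edgeR's trimmed mean of M-values), so that genes and samples share 1 scale. Of 10 Müllerian duct markers, such as PAX2 and EMX2, 9 were in the table and all 9 passed the filter on low values, with a summed level between 171 and 259 in every sample. Of 6 plasma cell and B cell markers, JCHAIN, MZB1, PAX5, CD79B and IRF4 were each below 1 in every sample, and CD79B was at 0 in all of them. The other marker, PRDM1, passed the filter on low values, and the list summed to between 4.13 and 8.84 per sample. The oil right samples stood apart from the others in their haemoglobin share. Haemoglobin genes took 6.11 to 12.7% of the counts there, against 1.35 to 3.01% in oil left, 0.991 to 2.1% in EE left and 1.66 to 5.65% in EE right ducts. The summed level of 7 erythroid markers was 372 to 821 in oil right and 122 to 385 in EE right ducts, so these groups overlapped. The skeletal muscle sum was 179 in oil right 1 and between 9.57 and 19.4 in all other samples, so results were also computed without oil left 1, oil right 1 and EE right 1, which earlier work on these data had set aside for transcripts of other tissues. The embryos' ducts were sequenced in bulk, so that fewer cells of a type and less RNA per cell cannot be told apart.

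The secretory genes were well expressed in every group. A gene was tested where its deposited FPKM was at least 1 in all 3 samples of some group, which 56 of the 57 members and 11790 of all genes did. PDIA2, a disulfide isomerase, was the exception, with 21 counts over all samples. The median level of the 56 tested members was 46.9, against 11.7 for all genes tested, and single members ran from 7.8 for the cargo adaptor SEC24B to 723 for calreticulin (CALR). As a share of the counts other than haemoglobin, the 57 members together made up 1.03 to 1.2% in every sample. The share was 1.09 to 1.15% in oil left and 1.03 to 1.09% in oil right ducts. It was 1.14 to 1.2% in EE left and 1.13 to 1.17% in EE right ducts, so every EE sample was above every oil right sample. By summed level, the translocon and its partners came first in every group, then the ER lumen chaperones and the lectin chaperones, and then the disulfide isomerases.

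**Figure D1:**
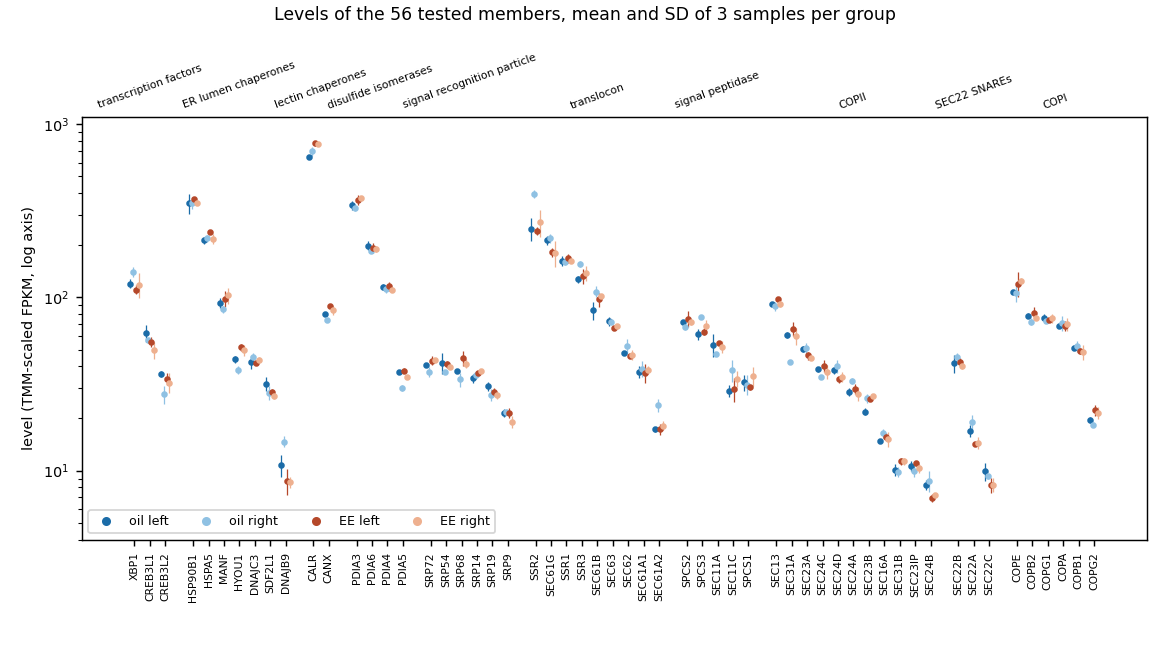
Levels of the 56 tested members on a log axis (TMM-scaled FPKM), grouped by role; each point is the mean of the 3 samples of a group and each bar the SD. CALR was the highest member in all 4 groups, and the colours of most genes lie close together, with SSR2, SEC31A, SEC61A2 and DNAJB9 among those whose oil right point stands off.

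In oil-exposed embryos the left and right ducts differed in 11 secretory genes. The COPII coat gene SEC31A, the transcription factor CREB3L2 and the isomerase PDIA5 were higher on the left. The translocon genes SSR2, SSR3, SEC61A2 and SEC61B, the signal peptidase genes SEC11C and SPCS3, the co-chaperone DNAJB9 and the COPII gene SEC23B were higher on the right. That is 3 of 56 members higher and 8 lower on the left by edgeR's quasi-likelihood test at an adjusted p of 0.05, whereas 19% of all genes tested were called higher and 18.5% lower. The median log2 ratio of the members was 0.01 (all genes 0). All 11 calls were lost when the haemoglobin share of each sample was a covariate, with adjusted p between 0.139 and 0.894. In that fit 712 of all genes were called higher and 570 lower, against 2238 and 2185 without the covariate. The haemoglobin shares of oil left and oil right samples did not overlap, so haemoglobin and side are hard to separate in that fit. With library sizes left unscaled the median of all genes moved to 0.18 and the split among the members was 22 higher and 2 lower. With haemoglobin counts left out of unscaled library sizes that split was 10 and 5. Without oil left 1, oil right 1 and EE right 1 it was 3 and 5. The calls of SEC31A, CREB3L2, PDIA5, SSR2 and SEC61A2 were kept in all 10 settings other than the covariate, and those of SPCS3, SEC61B, DNAJB9, SEC23B, SSR3 and SEC11C in 4 to 7 of 11.

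Markers of several cell types moved with the same contrast. The summed level of 9 markers of dividing cells was 467 to 553 in oil left and 124 to 144 in oil right ducts, that of 11 macrophage markers was 28.4 to 29.8 against 88.4 to 97.7, and that of 12 endothelial markers was 199 to 211 against 99.7 to 114. The sum of 8 smooth muscle markers was 1330 to 1640 in oil left and 593 to 959 in oil right ducts. Their part in the differences of the secretory genes was not tested.

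In EE-exposed embryos no secretory gene passed the test between left and right ducts. This was so by edgeR, by DESeq2 and by limma. An unadjusted p of 0.05 by edgeR was reached by 0 of the 56 members and by 899 of the 11790 genes tested. Of all genes tested, 0% were called higher and 0.0848% lower on the left. The members' log2 ratios ran from -0.21 to 0.17, and the 95% interval of all 56 lay inside 1.5-fold in both directions, as it did for 73.7% of genes.

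Ethynylestradiol changed more secretory genes in right than in left ducts by count, and the difference between sides passed edgeR's test with TMM and all samples for none of them. In left ducts CALR and SEC23B rose, 2 of 56 members, and 0 fell; at an unadjusted p of 0.05 the counts were 6 higher and 6 lower, and DESeq2 called 3 higher and 0 lower. Of all 11790 genes tested, 6.67% rose and 7.01% fell, and 1486 were higher and 1661 lower at an unadjusted p of 0.05. In right ducts 6 members rose (SEC31A, HYOU1, SRP68, MANF, SRP72 and PDIA5) and 6 fell (DNAJB9, SSR2, SEC61A2, SEC22A, SEC61G and SEC24A), beside 17.8% and 17.1% of all genes. The median log2 ratio of the members was 0.03 on the left and -0.01 on the right. Unscaled library sizes turned the right-duct split to 21 higher and 2 lower, with the median of all genes at 0.17, and leaving haemoglobin counts out of them gave 13 and 4. Without oil left 1, oil right 1 and EE right 1, 0 members were called with EE in left ducts, and 3 rose and 4 fell in right ducts. Over all genes the haemoglobin covariate left 1327 higher and 1184 lower with EE in right ducts, against 2093 and 2019 without it. With the haemoglobin covariate 2 members rose in right ducts, HYOU1 (adjusted p = 0.0149) and SEC31A (adjusted p = 0.0207), and 2 fell, DNAJB9 (adjusted p = 0.00775) and SEC24D (adjusted p = 0.0334), which was also called without EE right 2 (adjusted p = 0.0363) and by DESeq2 (adjusted p = 0.0353). The calls in right ducts of SEC31A, HYOU1 and DNAJB9 were kept in all 11 other settings, those of SSR2, SRP68, PDIA5 and SRP72 in 9 to 10, and those of SEC61A2, MANF, SEC22A, SEC24A and SEC61G in 2 to 7. The summed level of dividing-cell markers was 314 to 358 in EE right against 124 to 144 in oil right ducts, that of macrophage markers was 37.1 to 49.8 against 88.4 to 97.7, and that of 10 epithelial markers was 617 to 706 against 417 to 425. Their part in these changes was not tested.

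The effect of side in EE ducts less that in oil ducts (the interaction) was called for 0 of 56 members in either direction by edgeR with TMM and all samples, with 4 higher and 2 lower at an unadjusted p of 0.05. Of all 11790 genes tested, 4.74% were called higher and 7.08% lower, and 1339 were higher and 1584 lower at an unadjusted p of 0.05. The members nearest to a call were SSR2 (0.49 ± 0.17 SE, adjusted p = 0.0713), SEC31A (-0.36 ± 0.13 SE, adjusted p = 0.0732) and SEC61A2 (0.38 ± 0.14 SE, adjusted p = 0.0794). DESeq2 called SSR2 (log2 0.5, adjusted p = 0.0252) and SEC31A (log2 -0.36, adjusted p = 0.0461), and library-size scaling called SEC31A (log2 -0.51, adjusted p = 0.0241), as did library sizes less haemoglobin (adjusted p = 0.0286) and limma with pseudocounts of 1 (adjusted p = 0.0351) and 0.1 (adjusted p = 0.0354). The median of all genes was -0.14 with library-size scaling and -0.08 with library sizes less haemoglobin. By edgeR with TMM, SSR2 was called without oil left 1 (adjusted p = 0.0376) or EE right 3 (adjusted p = 0.0221), and SEC31A without EE left 1 (adjusted p = 0.0411) or EE right 3 (adjusted p = 0.0313). The oil right samples enter both the comparison of sides in oil and that of EE with oil in right ducts, so the ratios of a gene in these comparisons are not independent of each other.

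**Figure D2:**
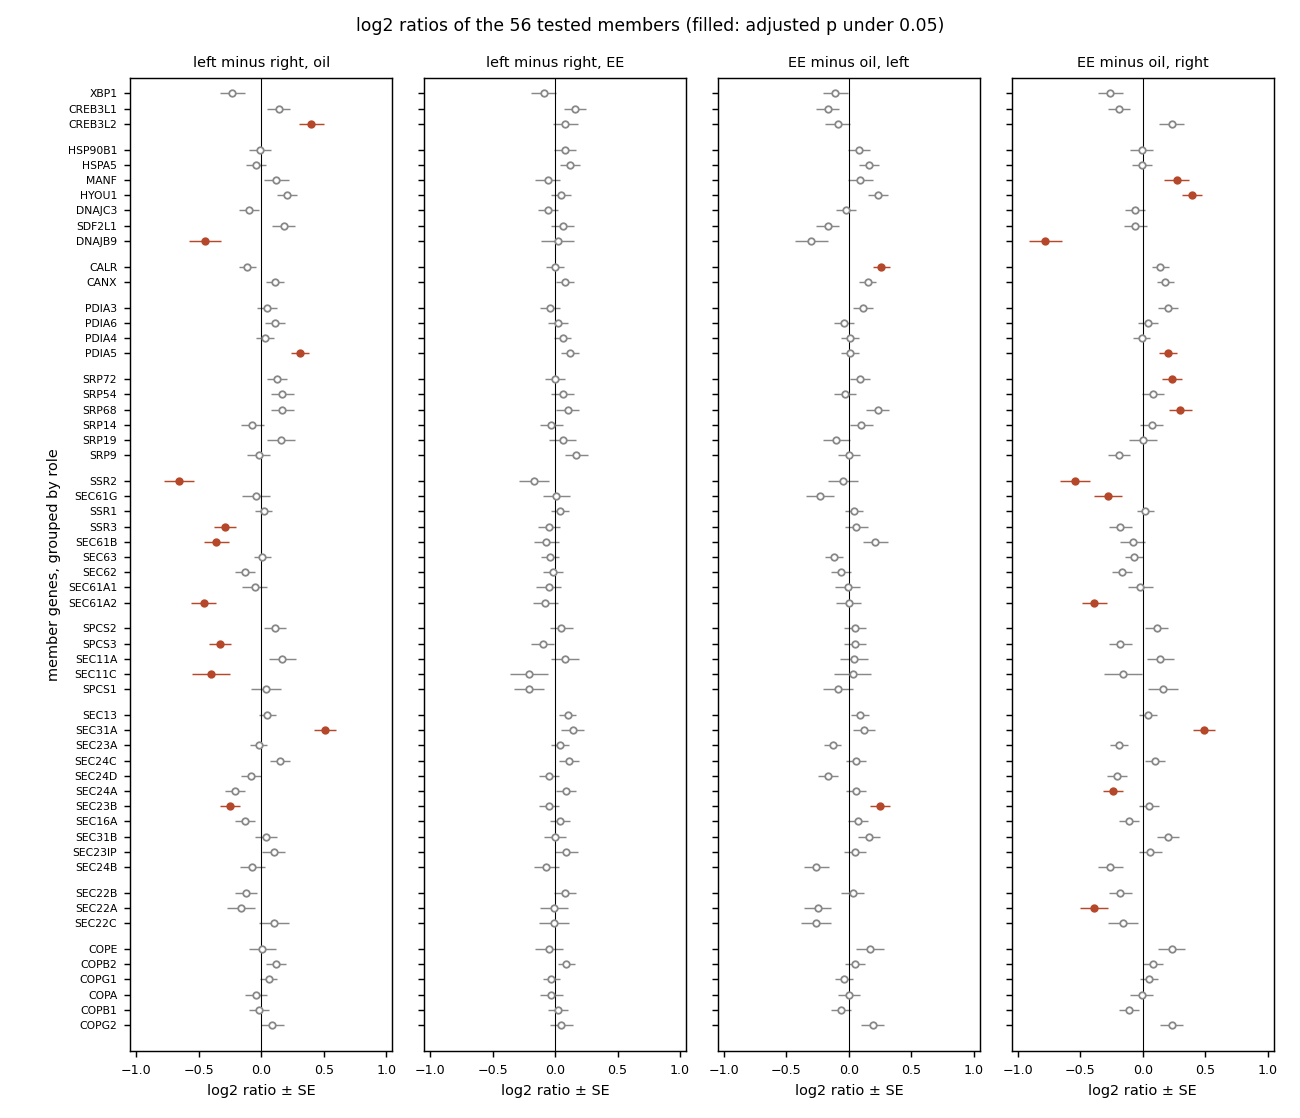
log2 ratio of each tested member in the 4 comparisons, grouped by role; points are edgeR estimates, bars are ± 1 SE, and filled points have an adjusted p under 0.05. Calls lie in the left minus right comparison of oil ducts (11 members) and in EE minus oil in right ducts (12 members), with 2 in EE minus oil in left ducts and 0 in left minus right of EE ducts.

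At the entry to the ER, 2 of 6 signal recognition particle genes passed the test, both with EE on the right, where 17.8% of all genes rose and 17.1% fell. SRP54, which binds the signal peptide, had levels of 41.9 ± 5.8, 37.3 ± 0.177, 41 ± 1.75 and 39.4 ± 0.546 (mean ± SD, n = 3) in oil left, oil right, EE left and EE right ducts. SRP68 and SRP72, which form a scaffold on the particle's RNA, both rose with EE on the right. SRP68 measured 36.9, 32.7 and 31.1 in oil right ducts and 39.9, 44.2 and 40 in EE right ducts, and SRP72 measured 34.1, 38.3 and 38.5 in oil right ducts and 43.3, 43.9 and 42.7 in EE right ducts. Every EE sample of both genes was above every oil sample on that side. The log2 ratio was 0.3 ± 0.09 SE, adjusted p = 0.0153 for SRP68 and 0.23 ± 0.08 SE, adjusted p = 0.0342 for SRP72. The SRP68 call was lost without oil right 3 (adjusted p = 0.0723) or EE right 2 (adjusted p = 0.0741). The SRP72 call was lost without oil right 1 (adjusted p = 0.141), EE right 1 (adjusted p = 0.0741), EE right 2 (adjusted p = 0.0904) or EE right 3 (adjusted p = 0.0504). On the left SRP68 measured 38.8, 37.3 and 37.4 in oil left ducts and 44.5, 48.8 and 39.9 in EE left ducts, and its ratio there (0.23 ± 0.09 SE, adjusted p = 0.108) did not pass. SRP9, SRP14, SRP19 and SRP54 passed in no comparison.

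In the translocon, SSR2 showed the widest gap between oil ducts of all members. SSR2 encodes the beta subunit of the translocon-associated protein complex, which sits beside the SEC61 channel (25:2082346-2085789, Coturnix japonica 2.1). Its level was 284, 253 and 210 in oil left ducts and 390, 377 and 418 in oil right ducts, and 244, 227 and 251 in EE left ducts and 277, 221 and 314 in EE right ducts. The 3 oil right samples were above all 9 others. The log2 ratio of left to right in oil was -0.66 ± 0.12 SE, adjusted p = 0.000434, and that of EE to oil in right ducts was -0.54 ± 0.12 SE, adjusted p = 0.00218. In left ducts the EE ratio was -0.05 ± 0.12 SE, adjusted p = 0.835. Both calls held in each of 12 fits that left out 1 sample and were lost with the haemoglobin covariate, the second at an adjusted p of 0.0628.

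The partner subunits SSR1 and SSR3 had narrower ratios between oil ducts than SSR2. SSR1, the alpha subunit, had 163 ± 10.9, 161 ± 7.28, 168 ± 9.1 and 163 ± 4.52 in the order oil left, oil right, EE left, EE right, and its 95% interval for left minus right in oil ran from -0.14 to 0.18 (log2). The ratio of SSR2 to SSR1 was 1.54 ± 0.297 in oil left, 2.45 ± 0.12 in oil right, 1.44 ± 0.125 in EE left and 1.66 ± 0.28 in EE right ducts. SSR3, the gamma subunit, measured 131, 131 and 120 in oil left ducts and 163, 155 and 150 in oil right ducts. In EE embryos it stood at 133 ± 13.3 in left ducts (mean ± SD) and at 148, 122 and 143 in right ducts. Its oil right samples lay above all oil left samples, with a log2 ratio of -0.29 ± 0.09 SE, adjusted p = 0.0178. The SSR3 call was lost without oil left 3 (adjusted p = 0.0698) or oil right 1 (adjusted p = 0.0615).

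Of the pair of genes for the channel's pore subunit, SEC61A2 differed between groups while no comparison called SEC61A1. SEC61A2 (1:5619651-5635241) measured 16.9, 17.9 and 17.1 in oil left ducts and 23.8, 25.9 and 21.7 in oil right ducts, and 16.3, 18.7 and 16.8 in EE left ducts and 18.2, 17.1 and 19.2 in EE right ducts. Again the 3 oil right samples were above all 9 others. Left minus right in oil gave -0.46 ± 0.1 SE, adjusted p = 0.00136, and EE minus oil on the right gave -0.39 ± 0.1 SE, adjusted p = 0.00466. Both calls held in all 12 fits that left out 1 sample. The call with EE was lost in 4 of 11 other settings (both limma fits, library-size scaling and the haemoglobin covariate), where the ratio fell to as little as -0.2. The more abundant SEC61A1 had 37.2 ± 3.02, 38.6 ± 4.08, 36.8 ± 4.7 and 38.2 ± 2.01 in oil left, oil right, EE left and EE right ducts, with a 95% interval from -0.28 to 0.17 for left minus right in oil. The level of SEC61A1 over that of SEC61A2 was lowest in oil right ducts, at 1.62 ± 0.176, against 2.15 ± 0.121 in oil left, 2.14 ± 0.306 in EE left and 2.11 ± 0.223 in EE right ducts.

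The small channel subunits were called in different comparisons. SEC61B, the beta subunit, measured 91.3, 88 and 73 in oil left ducts and 114, 111 and 99.2 in oil right ducts, and 106, 97.1 and 88.7 in EE left ducts and 100, 104 and 101 in EE right ducts. Its 3 oil left samples lay below the 3 oil right samples (-0.36 ± 0.1 SE, adjusted p = 0.0112), and the call was lost without oil left 3 (adjusted p = 0.053). SEC61G, the gamma subunit, measured 220, 222 and 198 in oil left ducts and 235, 215 and 209 in oil right ducts, and 187, 190 and 170 in EE left ducts and 167, 158 and 217 in EE right ducts. EE right 3 lay within the oil right range, and the ratio of -0.28 ± 0.11 SE, adjusted p = 0.0499 was kept in 1 of 12 fits that left out a sample and in 2 of 11 other settings. SEC62 and SEC63, which help proteins through the channel, passed in no comparison with all samples. Lower SEC62 with EE on the right was called without oil right 1 (log2 -0.24, adjusted p = 0.0301). Summed over its 9 genes, the translocon stood at 1010 ± 53 in oil left, 1230 ± 20 in oil right, 987 ± 31.4 in EE left and 1030 ± 88.6 in EE right ducts.

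Signal peptidase has a catalytic subunit that is either SEC11A or SEC11C, with the accessory subunits SPCS1, SPCS2 and SPCS3. SEC11C measured 28.6, 31.1 and 26.9 in oil left ducts and 38.8, 43.3 and 32.1 in oil right ducts, and 26.4, 34.8 and 27.2 in EE left ducts and 34.7, 30.1 and 37.4 in EE right ducts. All oil left samples were below all oil right samples, with a log2 ratio of -0.4 ± 0.15 SE, adjusted p = 0.0437. The call was kept in 4 of 11 other settings and lost without oil left 1 (adjusted p = 0.0928), oil left 3 (adjusted p = 0.124), oil right 1 (adjusted p = 0.0926), oil right 2 (adjusted p = 0.178) or EE right 1 (adjusted p = 0.0542). SPCS3 measured 65.8, 61.7 and 56.7 in oil left ducts and 79.1, 74.4 and 77.7 in oil right ducts, and 66.5, 62.8 and 61.1 in EE left ducts and 73.3, 61.8 and 69 in EE right ducts, and its log2 ratio in oil was -0.33 ± 0.09 SE, adjusted p = 0.00875. SPCS3 overlaps ASB5 on the opposite strand by 375 bases, with 1460 and 630 mean counts, and SPCS1 overlaps NEK4, with 808 and 749, and the strand setting of the counting is not given in the sources used here, so reads of these pairs cannot be told apart where they overlap. SEC11A, with 53.2 ± 7.93 in oil left and 47.1 ± 1.31 in oil right ducts, passed in no comparison with all samples, nor did SPCS1 or SPCS2. Higher SEC11A on the left in oil was called without oil left 2 (log2 0.28, adjusted p = 0.0406). The level of SEC11A over that of SEC11C was 1.86 ± 0.412 in oil left and 1.26 ± 0.18 in oil right ducts.

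In the ER lumen, the central chaperones HSPA5 and HSP90B1 were called in no comparison. HSPA5, also known as BiP, is the ER's HSP70, which also holds the stress sensors inactive (17:8079319-8083523). It measured 218, 200 and 219 in oil left ducts and 206, 228 and 224 in oil right ducts, and 243, 235 and 235 in EE left ducts and 225, 227 and 203 in EE right ducts. All 3 EE left samples were above the oil left samples, without a call (0.16 ± 0.08 SE, adjusted p = 0.187). The 95% interval for EE on the right ran from -0.17 to 0.15. HSP90B1, the ER's HSP90, measured 315, 330 and 402 in oil left ducts and 333, 335 and 384 in oil right ducts, and 377, 369 and 359 in EE left ducts and 343, 358 and 346 in EE right ducts. The EE left samples of HSP90B1 were above the EE right samples, without a call (0.08 ± 0.09 SE, adjusted p = 0.886), and its groups overlapped in the other comparisons. Its intervals reached from -0.21 to 0.28 over the 4 comparisons.

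Of the cofactors of HSPA5, HYOU1 rose and DNAJB9 fell with EE in right ducts. HYOU1 (24:4917646-4931824), a large HSP70-related protein that exchanges the nucleotide of HSPA5, measured 44.7, 41.7 and 45 in oil left ducts and 35.6, 39.2 and 39 in oil right ducts, and 53.3, 48.5 and 52.6 in EE left ducts and 51.9, 51.7 and 45.2 in EE right ducts. The EE samples were above the oil samples on both sides. The log2 ratio was 0.39 ± 0.08 SE, adjusted p = 0.00123 in right ducts, a call kept in all 11 other settings and all 12 fits without a sample. In left ducts it was 0.23 ± 0.08 SE, adjusted p = 0.0584, which was called by DESeq2 (adjusted p = 0.0306), with library sizes less haemoglobin (adjusted p = 0.0392) and without oil right 2 (adjusted p = 0.0491) or EE right 3 (adjusted p = 0.0332). Between oil ducts the HYOU1 ratio was 0.21 ± 0.08 SE, adjusted p = 0.0501, with every left sample above every right sample. That ratio was called by DESeq2 (adjusted p = 0.0399). It was also called by both limma fits and library-size scaling (adjusted p = 0.00169). These share unscaled library sizes, with the median of all genes at 0.16 to 0.18. Library sizes less haemoglobin (adjusted p = 0.00864) and leaving out EE right 3 (adjusted p = 0.0379) also gave a call. DNAJB9 (1:25665461-25675161), a J-domain partner of HSPA5 known in mammals as a target of XBP1, measured 10.9, 12.1 and 9.09 in oil left ducts and 15.7, 14.7 and 13.6 in oil right ducts, and 8.56, 10.3 and 7.36 in EE left ducts and 8.45, 7.97 and 9.28 in EE right ducts. All 3 oil right samples were above all 9 others.

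DNAJB9 had the widest ratio of all members in any comparison, at -0.78 ± 0.13 SE, adjusted p = 0.000321 for EE in right ducts, kept in all 11 other settings and in all 12 fits without a sample. On the left the ratio was -0.3 ± 0.13 SE, adjusted p = 0.166. Between oil ducts it was -0.45 ± 0.13 SE, adjusted p = 0.0136, lost without oil left 3 (adjusted p = 0.0674) or oil right 1 (adjusted p = 0.0508). MANF, a small secreted factor of the ER, measured 94, 85.8 and 98.1 in oil left ducts and 83.9, 81.8 and 90.1 in oil right ducts, and 102, 106 and 86.6 in EE left ducts and 95.9, 96.5 and 115 in EE right ducts. The EE right samples of MANF lay above the oil right samples (0.27 ± 0.1 SE, adjusted p = 0.0444), and the call was lost without oil left 1 (adjusted p = 0.0559), oil right 1 (adjusted p = 0.0983), oil right 2 (adjusted p = 0.119), EE left 1 (adjusted p = 0.055) or EE right 3 (adjusted p = 0.189). DNAJC3, another J-domain partner, measured 39.1, 41.4 and 46.1 in oil left ducts and 43.9, 47.9 and 43.9 in oil right ducts, and 43, 40.8 and 41.4 in EE left ducts and 45.6, 42.8 and 42 in EE right ducts. SDF2L1, which works with DNAJ proteins on HSPA5, measured 31.7, 28.9 and 34.7 in oil left ducts and 26.4, 26.9 and 31 in oil right ducts, and 28.9, 29.1 and 27 in EE left ducts and 26.1, 26.9 and 28.2 in EE right ducts. The groups of DNAJC3 and SDF2L1 overlapped on each side and neither gene was called with TMM. Higher SDF2L1 on the left in oil was called by both limma fits, with library-size scaling (adjusted p = 0.0109) and with library sizes less haemoglobin (adjusted p = 0.0411). The median of all genes was 0.18 with library-size scaling and 0.08 less haemoglobin.

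The lectin chaperones hold glycoproteins until they are folded, and CALR was called with EE on the left. Both genes had higher values in every EE sample than in the oil samples of the same side. Of these 4 differences only that of CALR on the left passed the test, where 6.67% of all genes rose in left and 17.8% in right ducts. The share of all genes with groups apart in this way was not counted, so the separation cannot be read as particular to these genes. CALR (calreticulin, on an unplaced scaffold) measured 648, 648 and 645 in oil left ducts and 669, 680 and 745 in oil right ducts, and 801, 762 and 758 in EE left ducts and 794, 763 and 757 in EE right ducts. All EE samples were above all oil samples, and the log2 ratio was 0.26 ± 0.07 SE, adjusted p = 0.024 on the left and 0.14 ± 0.07 SE, adjusted p = 0.133 on the right. The left call was lost without oil left 1 (adjusted p = 0.0666), oil left 2 (adjusted p = 0.0637), oil left 3 (adjusted p = 0.0543), EE left 1 (adjusted p = 0.0907) or EE left 2 (adjusted p = 0.0541). CANX (calnexin), the membrane-bound relative, measured 78.4, 80.7 and 81.4 in oil left ducts and 75.7, 72.2 and 75.2 in oil right ducts, and 90.7, 88.3 and 88.2 in EE left ducts and 80.7, 89.7 and 81.9 in EE right ducts. Its EE samples did not overlap the oil samples of the same side, with ratios of 0.15 ± 0.07 SE, adjusted p = 0.162 on the left and 0.18 ± 0.07 SE, adjusted p = 0.0531 on the right, neither of which passed. On the right CANX was called by DESeq2 (adjusted p = 0.027), with library-size scaling (adjusted p = 0.00437) and with library sizes less haemoglobin (adjusted p = 0.00665). CALR on the right was called with library-size scaling (adjusted p = 0.00692) and library sizes less haemoglobin (adjusted p = 0.0129). In these fits the median log2 ratio of all genes was itself 0.17 and 0.09.

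Among the disulfide isomerases, which form and reshuffle disulfide bonds, PDIA5 was the only tested member of 4 with a call. It was called higher on the left in oil, as were 19% of all genes, and with EE on the right, as were 17.8%. PDIA5 (7:20074879-20165551) measured 37.6, 37.5 and 36.5 in oil left ducts and 28.9, 29.6 and 31.5 in oil right ducts, and 38.8, 36.3 and 37.5 in EE left ducts and 33.9, 34.9 and 34.7 in EE right ducts. Its oil right samples were below all 9 others. Left minus right in oil gave 0.31 ± 0.07 SE, adjusted p = 0.00175, kept in all 12 fits without a sample. EE minus oil on the right gave 0.2 ± 0.07 SE, adjusted p = 0.0273, which was lost without oil right 1 (adjusted p = 0.0904), oil right 2 (adjusted p = 0.0697), EE right 1 (adjusted p = 0.0546), EE right 2 (adjusted p = 0.0755) or EE right 3 (adjusted p = 0.0535). PDIA3, PDIA4 and PDIA6 had mean levels of 328 to 376, 111 to 116 and 185 to 199 over the 4 groups. PDIA3 came nearest to a call, with 0.2 ± 0.08 SE, adjusted p = 0.0565 for EE on the right. DESeq2 (adjusted p = 0.0256) and library-size scaling (adjusted p = 0.00351) called that PDIA3 ratio, the latter with the median of all genes at 0.17.

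**Figure D3:**
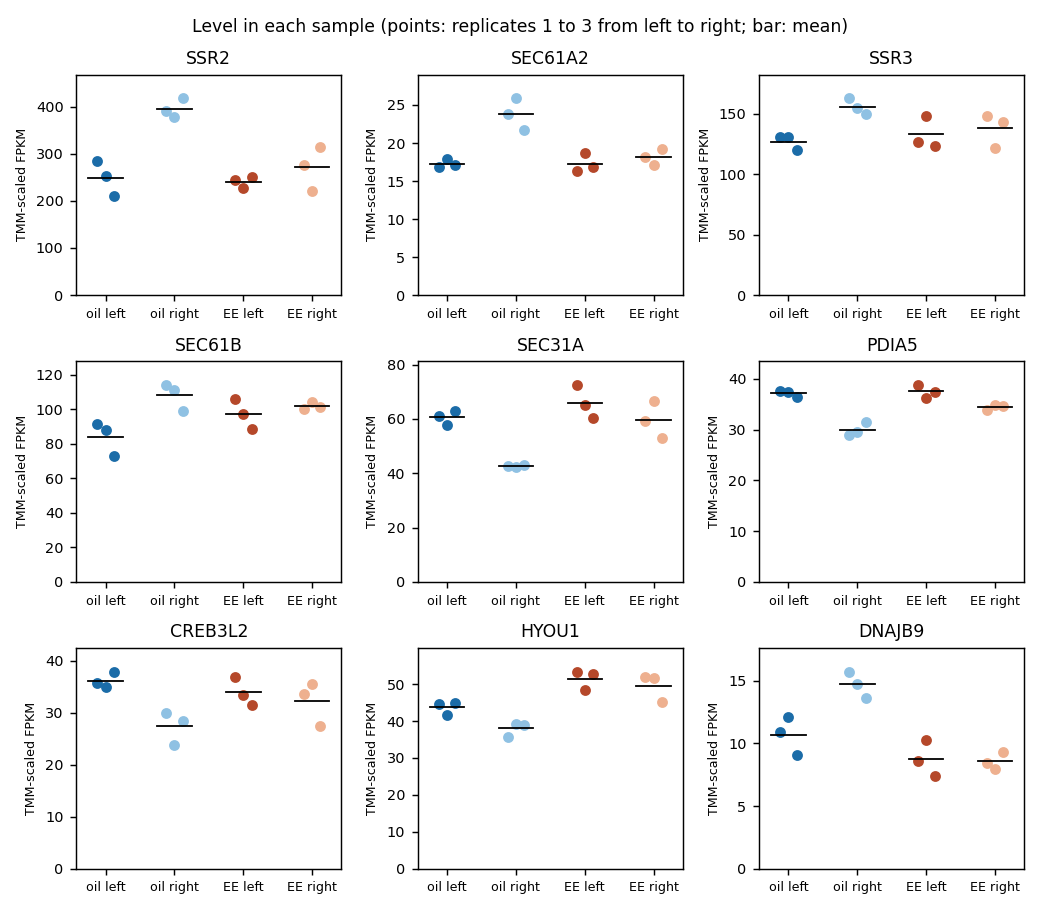
Level in each sample (TMM-scaled FPKM, axes from 0) for 9 members that were called in at least 1 comparison; points are samples and bars are group means. For SSR2, SEC61A2 and DNAJB9 the oil right samples lie above all others, for SEC31A and PDIA5 below all others, and for HYOU1 both EE groups lie above the oil groups.

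The COPII coat consists of an inner layer of SEC23 and SEC24 and an outer cage of SEC13 and SEC31. SEC31A (4:41239786-41271982) measured 61, 57.9 and 62.9 in oil left ducts and 42.6, 42.2 and 42.9 in oil right ducts, and 72.5, 65 and 60.5 in EE left ducts and 59.4, 66.5 and 53.1 in EE right ducts. The oil right samples were below all 9 others and close to each other. Left minus right in oil gave 0.51 ± 0.09 SE, adjusted p = 0.000338, and EE minus oil on the right gave 0.49 ± 0.09 SE, adjusted p = 0.00052, the latter kept in all 11 other settings and both kept in all 12 fits without a sample. Its partner in the cage, SEC13, had 91.7 ± 2.22, 88.7 ± 5.18, 97.8 ± 3.31 and 91.3 ± 3.25 in oil left, oil right, EE left and EE right ducts, and the paralog SEC31B had 10.1 ± 0.762, 9.81 ± 0.623, 11.3 ± 0.536 and 11.3 ± 0.531. Neither was called. The level of SEC31A over that of SEC31B was 6.03 ± 0.623, 4.35 ± 0.281, 5.87 ± 0.674 and 5.29 ± 0.362 in the same order.

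In the inner coat, SEC23B was lowest in oil left ducts. It measured 21.5, 23.1 and 21 in oil left ducts and 26.4, 27.4 and 24.5 in oil right ducts, and 26.7, 25.7 and 25.6 in EE left ducts and 28, 26.6 and 26.4 in EE right ducts. The oil left samples lay below all oil right and all EE left samples. The log2 ratio was -0.25 ± 0.08 SE, adjusted p = 0.0149 for left minus right in oil and 0.25 ± 0.08 SE, adjusted p = 0.0371 for EE minus oil on the left. The oil call was lost without oil right 2 (adjusted p = 0.0716). The EE call was lost without oil left 1 (adjusted p = 0.107), oil left 3 (adjusted p = 0.105), EE left 1 (adjusted p = 0.124), EE left 2 (adjusted p = 0.0781) or EE left 3 (adjusted p = 0.072). The paralog SEC23A had 50.5 ± 2.07, 51.2 ± 3.52, 46.2 ± 2.48 and 44.9 ± 0.841 in oil left, oil right, EE left and EE right ducts and was not called by edgeR with all samples. Lower SEC23A with EE on the right was called by DESeq2 (log2 -0.19, adjusted p = 0.0358) and without oil right 3 (log2 -0.24, adjusted p = 0.0351). The level of SEC23A over that of SEC23B was 2.32 ± 0.201 in oil left, 1.96 ± 0.0971 in oil right, 1.77 ± 0.0493 in EE left and 1.67 ± 0.0777 in EE right ducts, so that the oil left samples held the most SEC23A for each SEC23B.

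The SEC24 proteins pick the cargo. SEC24A measured 29.3, 29.2 and 26.8 in oil left ducts and 34.3, 32.9 and 31.5 in oil right ducts, and 31.6, 27.5 and 29.5 in EE left ducts and 28.7, 29.8 and 24.9 in EE right ducts. EE right samples were below all oil right samples (-0.24 ± 0.08 SE, adjusted p = 0.0326), and the call was lost without oil right 1 (adjusted p = 0.1), oil right 2 (adjusted p = 0.0773), EE right 1 (adjusted p = 0.0502) or EE right 3 (adjusted p = 0.159). Between oil ducts the SEC24A ratio was -0.21 ± 0.08 SE, adjusted p = 0.059, with every left sample below every right sample. That ratio was called by DESeq2 (adjusted p = 0.046), with the replicate block (adjusted p = 0.0483) and without EE right 3 (adjusted p = 0.0408). SEC24B, SEC24C and SEC24D were not called, with mean levels of 6.94 to 8.69, 34.7 to 40.1 and 33.6 to 40.2 over the 4 groups. SEC24D came nearest, with -0.21 ± 0.08 SE, adjusted p = 0.0548 for EE on the right. Lower SEC24B with EE on the right was called without oil right 3 (log2 -0.35, adjusted p = 0.0187). SEC16A, which marks ER exit sites, and SEC23IP, which binds SEC23, were not called in any comparison, with mean levels of 14.9 to 16.4 and 9.89 to 11.

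The SEC22 genes form a family that includes SEC22B, a fusion protein of vesicles between ER and Golgi. SEC22A measured 17.4, 15.6 and 18.1 in oil left ducts and 18.5, 21 and 17.4 in oil right ducts, and 14, 14.6 and 14.4 in EE left ducts and 13.3, 14.3 and 15.7 in EE right ducts. The EE samples were below the oil samples of the same side, and the ratio passed in right ducts (-0.39 ± 0.11 SE, adjusted p = 0.0113) but not in left ducts (-0.25 ± 0.11 SE, adjusted p = 0.167). The right call was lost without oil right 2 (adjusted p = 0.068) or EE right 1 (adjusted p = 0.0549). SEC22B, with mean levels of 40.1 to 45.5, and SEC22C, with 8.26 to 9.88, were not called.

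The COPI coat had 0 calls among its 6 members, COPA, COPB1, COPB2, COPE, COPG1 and COPG2, in any comparison by edgeR with TMM. At an unadjusted p of 0.05, 1 of them was higher with EE in left ducts and 2 in right ducts. Of all 11790 genes tested, 1486 and 2646 were. With unscaled library sizes COPB2, COPE, COPG1 and COPG2 were called higher with EE on the right, with the median of all genes at 0.17. Library sizes less haemoglobin, with that median at 0.09, called COPE (adjusted p = 0.0318) and COPG2 (adjusted p = 0.00915) there. Between oil ducts unscaled library sizes called COPB2, COPG1 and COPG2 higher on the left, with the median of all genes at 0.18. Library sizes less haemoglobin called COPB2 (adjusted p = 0.0425), with that median at 0.08. Summed, the coat stood at 401 ± 1.73, 393 ± 22.6, 416 ± 29.4 and 416 ± 9.29 in oil left, oil right, EE left and EE right ducts. COPG2 came nearest, with 0.23 ± 0.09 SE, adjusted p = 0.054 for EE on the right, and its more abundant paralog COPG1 had 0.05 ± 0.07 SE, adjusted p = 0.626. The level of COPG1 over that of COPG2 was 3.9 ± 0.308 in oil left and 3.33 ± 0.2 in EE left ducts.

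Of the transcription factors, CREB3L2 was called, and XBP1 and CREB3L1 were called only in some of the other fits. XBP1 controls much of the secretory programme once its mRNA is spliced, and gene counts do not tell the spliced from the unspliced form. It measured 126, 120 and 112 in oil left ducts and 131, 149 and 143 in oil right ducts, and 117, 112 and 103 in EE left ducts and 138, 99.7 and 115 in EE right ducts. The oil left samples of XBP1 were below the oil right samples, without a call (-0.23 ± 0.1 SE, adjusted p = 0.0861), and EE on the right gave -0.26 ± 0.1 SE, adjusted p = 0.063. Lower XBP1 with EE on the right was called without EE right 1 (log2 -0.39, adjusted p = 0.0069), without oil right 1 (log2 -0.31, adjusted p = 0.0492), without oil left 1, oil right 1 and EE right 1 together (log2 -0.44, adjusted p = 0.00738) and by DESeq2 (log2 -0.26, adjusted p = 0.0422). Between oil ducts it was called without those 3 samples (log2 -0.33, adjusted p = 0.0339), without EE right 1 (log2 -0.24, adjusted p = 0.0457) and without EE right 2 (log2 -0.23, adjusted p = 0.0472). CREB3L2 (1:54941280-55014404), a membrane-bound factor released from the ER, is known in mammals as an activator of SEC23A. It measured 35.7, 35 and 37.9 in oil left ducts and 30, 23.9 and 28.5 in oil right ducts, and 36.9, 33.5 and 31.6 in EE left ducts and 33.6, 35.6 and 27.5 in EE right ducts. The oil right samples lay below the oil left samples (0.4 ± 0.1 SE, adjusted p = 0.00696), a call kept in all 12 fits without a sample. Higher CREB3L2 with EE on the right (0.23 ± 0.1 SE, adjusted p = 0.101) was called without EE right 3 (log2 0.34, adjusted p = 0.0186). That ratio was also called by both limma fits, with library-size scaling (adjusted p = 0.0162) and with library sizes less haemoglobin (adjusted p = 0.0256). In the latter fits the median of all genes was 0.17 with library-size scaling and 0.09 less haemoglobin. CREB3L1, its relative, measured 70, 57.7 and 59.2 in oil left ducts and 58, 57.4 and 54 in oil right ducts, and 53.9, 53 and 59.3 in EE left ducts and 44.1, 55.4 and 49.3 in EE right ducts. Its groups overlapped, with no call by edgeR with TMM and all samples. Lower CREB3L1 with EE on the right was called without EE right 2 (log2 -0.28, adjusted p = 0.0467). Higher CREB3L1 on the left in oil was called by limma with pseudocounts of 1 (adjusted p = 0.0274) and 0.1 (adjusted p = 0.0279) and with library-size scaling (adjusted p = 0.0207). These fits share unscaled library sizes, with the median of all genes at 0.16 to 0.18.

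The ratios of all tested members were below 2-fold in each comparison. Thus 0 of 56 members were called at 2-fold or more. Of 11790 genes tested, 1088 were in left minus right of oil ducts and 1016 in EE minus oil of right ducts. The median level was 46.9 for the members and 11.7 for all genes tested, and the members were not compared with genes of like level. SSR2 and DNAJB9 were the members called at 1.5-fold or more. The 95% interval lay inside 1.5-fold in both directions for 50 of 56 members in left minus right of oil ducts (49.5% of all genes), for 56 in EE minus oil of left ducts (62.8%) and for 51 in EE minus oil of right ducts (51.3%). The members were also measured with less error, with a median SE of 0.09 against 0.13 for all genes. In all, 37 of the 56 tested members were called in no comparison. Neither this count nor that of calls at 1.5-fold or more was made over all genes, so they cannot be set beside a share of all genes.

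Other genes of the same pathway were taken from 5 lists. Their counts stand beside these shares of all genes tested. On the left in oil 19% were called higher and 18.5% lower, with a median log2 ratio of 0. With EE 6.67% rose and 7.01% fell in left ducts, and 17.8% rose and 17.1% fell in right ducts. In the interaction 4.74% were called higher and 7.08% lower. At an unadjusted p of 0.05, of 11790 genes tested, 2754 were higher and 2708 lower on the left in oil. The counts were 1486 and 1661 with EE in left ducts, and 1339 and 1584 in the interaction. The unfolded protein response and ER-associated degradation list had 25 tested genes, of which 1 was higher and 9 were lower in left than in right oil ducts, with a median of -0.22; with unscaled library sizes the split turned to 4 higher and 0 lower, and with the haemoglobin covariate it was 0 and 0. PPP1R15B, part of a phosphatase that lifts the stress block on translation, gave the lowest p, with -0.42 ± 0.1 SE, adjusted p = 0.00454, HERPUD1 gave -0.42 ± 0.12 SE, adjusted p = 0.0103, the stress sensor kinase EIF2AK3 (PERK) gave -0.36 ± 0.11 SE, adjusted p = 0.0147, DERL3 gave -0.41 ± 0.12 SE, adjusted p = 0.0152 and DERL1 gave -0.26 ± 0.08 SE, adjusted p = 0.0192. With EE, 1 gene of the list rose in left ducts, EIF2AK3 (0.51 ± 0.11 SE, adjusted p = 0.00387), and 0 fell, where 4 were higher and 3 lower at an unadjusted p of 0.05. In right ducts ERN1 (IRE1), the sensor that splices XBP1, rose (0.26 ± 0.08 SE, adjusted p = 0.023) and 4 genes fell, PPP1R15B (-0.51 ± 0.1 SE, adjusted p = 0.00121), SEL1L (-0.32 ± 0.09 SE, adjusted p = 0.0116), DERL3 (-0.4 ± 0.12 SE, adjusted p = 0.0189) and MBTPS2, a protease that releases ATF6 (-0.56 ± 0.21 SE, adjusted p = 0.0455). With unscaled library sizes that split turned to 5 higher and 1 lower, and with the haemoglobin covariate it was 0 and 0. In the interaction edgeR called 0 genes of this list, with 3 higher and 0 lower at an unadjusted p of 0.05 and 1 higher by DESeq2.

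Among 25 other ER folding factors, 3 were higher in left oil ducts, the prolyl isomerases FKBP9 (0.75 ± 0.16 SE, adjusted p = 0.0013) and PPIC (0.58 ± 0.14 SE, adjusted p = 0.00438) and the glycoprotein folding sensor UGGT1 (0.27 ± 0.1 SE, adjusted p = 0.0407), and 0 were lower, with 1 lower at an unadjusted p of 0.05 and 1 by DESeq2. With unscaled library sizes 9 were higher, with library sizes less haemoglobin 7, and with the haemoglobin covariate 0, and 0 were lower in each. CLGN (calmegin), a relative of calnexin, rose with EE on both sides. It measured 4.46, 6.09 and 6.34 in oil left ducts and 3.5, 3.36 and 6.31 in oil right ducts, and 9.15, 8.68 and 9.11 in EE left ducts and 7.67, 9.2 and 8.37 in EE right ducts, with log2 ratios of 0.68 ± 0.21 SE, adjusted p = 0.0384 on the left and 0.94 ± 0.21 SE, adjusted p = 0.00245 on the right. In right ducts the disulfide isomerase family member TMX3 fell (-0.38 ± 0.08 SE, adjusted p = 0.000931), as did FKBP7 (-0.28 ± 0.09 SE, adjusted p = 0.0245), so that 1 of the list was higher and 2 were lower. That split turned to 11 and 0 with unscaled library sizes and 8 and 1 with library sizes less haemoglobin, and it was 0 and 1 with the covariate. The 24 genes of N-glycosylation in the ER had 2 higher and 2 lower in left oil ducts, where ALG2 gave the lowest p (-0.52 ± 0.14 SE, adjusted p = 0.00709), and with EE on the right 1 fell, ALG11 (-0.4 ± 0.13 SE, adjusted p = 0.0261). Unscaled library sizes gave 4 higher and 0 lower in oil and 6 and 0 with EE on the right, and the haemoglobin covariate gave 0 and 0 in both.

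Of 16 other targeting and insertion factors, 4 were lower in left oil ducts and 0 higher (1 at an unadjusted p of 0.05, 0 by DESeq2), the membrane insertase genes EMC1 (-0.3 ± 0.09 SE, adjusted p = 0.0198) and EMC2 (-0.31 ± 0.11 SE, adjusted p = 0.0345), NACA (-0.26 ± 0.08 SE, adjusted p = 0.0216) and the particle's receptor SRPRA (-0.21 ± 0.08 SE, adjusted p = 0.0475). NACA, which keeps ribosomes without a signal peptide off the ER, rose with EE on the left (0.33 ± 0.08 SE, adjusted p = 0.014), and EMC2 (-0.46 ± 0.11 SE, adjusted p = 0.00345) and EMC6 (-0.57 ± 0.16 SE, adjusted p = 0.0106) fell on the right. All 4 oil calls were lost with unscaled library sizes (3 higher and 0 lower), with library sizes less haemoglobin (1 and 0) and with the haemoglobin covariate (0 and 0). With EE on the right 0 were higher and 2 lower, against 3 and 0 with unscaled library sizes and 0 and 1 with the covariate. Of 45 cargo receptors, GTPases and tethers between ER and Golgi, 2 were higher and 9 lower in left oil ducts, turning to 12 and 2 with unscaled library sizes and 0 and 1 with the haemoglobin covariate. KDELR2, the receptor that returns ER proteins bearing a KDEL end, measured 107, 107 and 108 in oil left ducts and 156, 154 and 156 in oil right ducts, and 118, 119 and 115 in EE left ducts and 103, 117 and 126 in EE right ducts. Its oil right samples were above all 9 others, and it was lower on the left in oil (-0.53 ± 0.08 SE, adjusted p = 4.63e-05) and lower with EE on the right (-0.43 ± 0.08 SE, adjusted p = 0.000347), and it was the gene of this list called in the interaction (0.56 ± 0.11 SE, adjusted p = 0.00243).

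The cargo receptor LMAN1 and its partner MCFD2 went apart with EE in right ducts. LMAN1 measured 35.7, 37.2 and 35.6 in oil right ducts and 47.1, 51.7 and 44.8 in EE right ducts (0.41 ± 0.1 SE, adjusted p = 0.006). MCFD2 measured 113, 106 and 107 in oil right ducts and 80.8, 70.4 and 77.9 in EE right ducts (-0.51 ± 0.07 SE, adjusted p = 6.43e-05). The groups of neither gene overlapped. With the haemoglobin covariate the LMAN1 call was lost, at a log2 ratio of 0.22, and the MCFD2 call was kept in all 7 other settings run for the lists. ERGIC1, of the compartment between ER and Golgi, rose with EE in left (0.24 ± 0.07 SE, adjusted p = 0.0402) and in right ducts (0.39 ± 0.07 SE, adjusted p = 0.000681), and the fusion protein BET1 fell on both sides (-0.38 ± 0.11 SE, adjusted p = 0.0247 and -0.54 ± 0.11 SE, adjusted p = 0.00102). The left call was kept in 3 of those 7 settings for ERGIC1 and in 4 for BET1, and both right calls in all 7. In this list 3 genes rose and 6 fell with EE on the right (11 and 4 with unscaled library sizes), and 2 rose and 1 fell on the left.

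Of 27 tested chaperones of the cytosol and mitochondria, 14 were higher and 1 lower in left oil ducts, and with EE 4 rose and 1 fell on the left and 15 rose and 2 fell on the right. Of all genes 19% were higher and 18.5% lower in oil, and 17.8% rose and 17.1% fell with EE on the right. Unscaled library sizes gave 22 and 1 in oil and 21 and 1 with EE on the right, and leaving out oil left 1, oil right 1 and EE right 1 gave 9 and 1, and 10 and 3. In right ducts HSPH1, the cytosolic relative of HYOU1, measured 5.32, 4.64 and 5.29 in oil right ducts and 13.8, 13.7 and 10.4 in EE right ducts (1.31 ± 0.16 SE, adjusted p = 9.93e-06), and HSP90AB1, the cytosolic relative of HSP90B1, measured 150, 145 and 155 in oil right ducts and 224, 235 and 209 in EE right ducts (0.57 ± 0.07 SE, adjusted p = 2.31e-05). Their groups did not overlap. With the haemoglobin covariate the right-duct counts were 8 and 2, and those of left minus right in oil were 0 and 0. Whether chaperones outside the ER changed more often than those inside it was not tested.

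**Figure D4:**
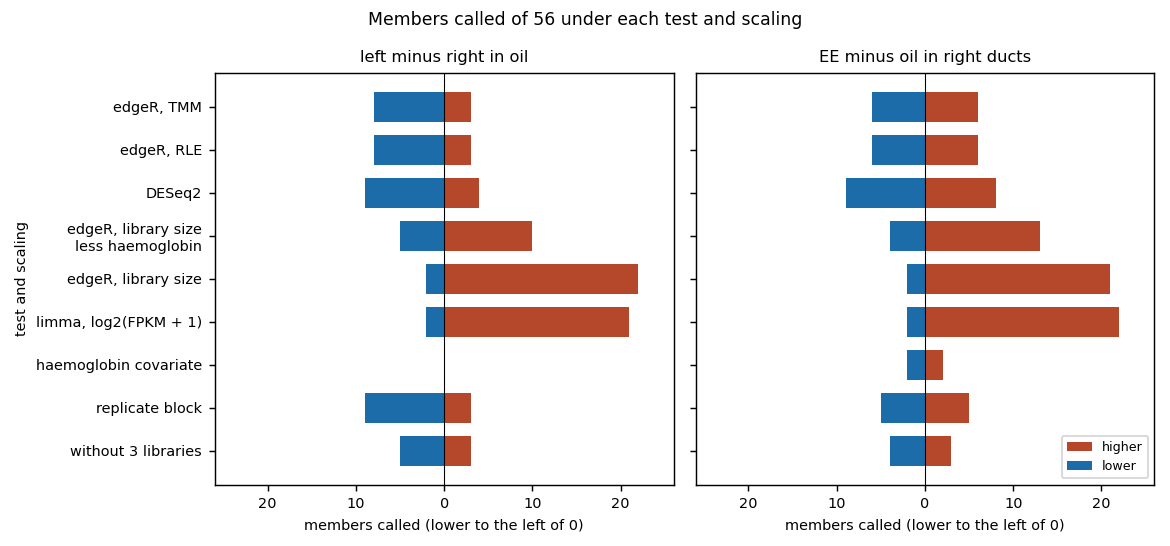
Members called higher (red, to the right of 0) and lower (blue, to the left) of 56 under each test and scaling, for left minus right in oil and for EE minus oil in right ducts. TMM and RLE scaling give 3 and 8 in oil, unscaled library sizes give 22 and 2, and the haemoglobin covariate leaves 0 in oil and 2 and 2 in EE right ducts.

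Egg-white proteins are the main cargo of the adult oviduct, and of their genes ovalbumin, ovomucoid, ovoinhibitor and mucin-5B were looked at here. Each had higher levels in every EE sample than in every oil sample. Other egg-white genes were not examined, and the share of all genes with such a gap was not counted. Ovalbumin (LOC107309565) had 3.21 ± 0.878 in oil left, 1.5 ± 1.47 in oil right, 61.1 ± 8.43 in EE left and 57 ± 27.9 in EE right ducts, and ovoinhibitor (LOC107320451) had 4.36 ± 1.04, 17.9 ± 4.17, 171 ± 20.7 and 174 ± 55.5 in the same order (mean ± SD, n = 3).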

How the data were processed

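Counts and FPKM values per gene were deposited by the authors in a single table. Per the submitters' processing notes, cutadapt 1.9.1, HISAT2 2.0.1, HTSeq 0.6.1 and DESeq2 1.6.3 were used; per the labels' protocols, the RNA was poly(A)-selected with oligo(dT) beads. Build, annotation and strandedness are not named in these sources, but all 57 members have the coordinates of RefSeq's Coturnix japonica 2.1. The deposited FPKM values equal the deposited counts divided by total count and deposited exonic length, to within 0.005. The table also gives that exonic length in bases for each gene.

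From the deposited counts, edgeR 4.0.16 (R 4.3.3) was fitted to all 12 samples as 4 group means with TMM scaling and the quasi-likelihood test, over the 11790 genes whose FPKM was at least 1 in all 3 samples of a group. The p-values are two-sided and adjusted by Benjamini-Hochberg over all of these genes, with 0.05 as the threshold. Where no other fit is named, a gene said to be called or not called was so in this fit. Calls made only by other fits are given for some members and not for all. Where samples of a group are said to lie above or below those of another, the share of all genes with groups apart in that way was not counted. Levels are edgeR's RPKM with the TMM factors. The procedure was run on simulated counts. Few genes were changed there and no haemoglobin shift was built in, so that run does not measure error rates in these data. Members, roles, gene lists and tests were chosen with earlier results of these data known, and lists are described by counts without a set test. Named with values in each sample are the 12 listed members and, for each comparison, up to 10 other called members with the largest ratios; of the other lists, up to 5 called genes with the lowest p (1 gene of the unfolded protein response list is not reported here and is left out of its counts), while LMAN1 was named after its values were seen.

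Alternatives were DESeq2 1.42.0, limma 3.58.1 on log2(FPKM + 1) and log2(FPKM + 0.1), RLE and library-size scaling, no filter and filterByExpr, the replicate number as a block, the haemoglobin share as a covariate, leaving out 3 libraries or each sample in turn, and, chosen after seeing the data, library sizes without haemoglobin counts. The limma fits used the deposited FPKM, so their library sizes were unscaled, as in library-size scaling. Same-numbered left and right samples deviated together with correlations of 0.06 to 0.17 in oil and -0.02 to 0.08 in EE embryos. They were not taken as pairs, but the labels do not say whether they share embryos. All 6 oil samples correlated best with their own number on the other side (1 of 6 in EE). Pairing is thus not excluded, and no fit paired the sides within a treatment. Promoter and protein sequences were not used here.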

Additional observations from a re-analysis of the deposited data

Results flagged for a closer look

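No member met a criterion for a closer look. Of the other genes reported from the lists, 3 had an effect of side that differed between EE and oil embryos by the interaction term of edgeR's fit, given here as the log2 ratio of left to right in EE less that in oil. KDELR2 had 0.56 (adjusted p = 0.00243) and was called in all 7 other settings run for the lists. The cytosolic co-chaperone BAG3 had 0.55 (adjusted p = 0.0222), called in 3 of 7. HSPH1 had -0.84 (adjusted p = 0.0181), called in 6 of 7, the haemoglobin covariate being the exception.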

How the results depend on the processing

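Of the 575 ratios obtained by refitting the 25 calls of members under 11 settings and 12 fits without 1 sample, 446 kept their call, 129 lost it and 0 changed sign. In left minus right of oil ducts, members called higher numbered 21 and 23 by limma (pseudocounts 1 and 0.1), 22 with library-size scaling, 10 with library sizes less haemoglobin and 0 with the haemoglobin covariate. Members called lower numbered 2 by both limma fits and library-size scaling, 5 with library sizes less haemoglobin, 5 without 3 libraries and 0 with the covariate. The median was 0.19 by limma and library-size scaling, 0.09 less haemoglobin and -0.02 with the covariate. For EE minus oil in right ducts, members called higher numbered 22 by both limma fits, 21 with library-size scaling, 13 less haemoglobin, 3 without 3 libraries and 2 with the covariate, and those called lower 2 by limma, library-size scaling and the covariate. That median was 0.17 by limma and library-size scaling, 0.09 less haemoglobin, -0.03 without 3 libraries and -0.04 with the covariate. In left ducts 1 member was higher with no filter and 0 without 3 libraries, and the median was 0.05 by limma and library-size scaling; in left minus right of EE ducts it was 0.06 by both. For the interaction DESeq2 called 1 higher and 1 lower, and limma, library-size scaling and library sizes less haemoglobin called 1 lower, with medians of -0.13 (-0.06 less haemoglobin). Unscaled library sizes moved the median of all genes as far, and the cause of the other changes was not tested.

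Leaving out each sample in turn, the oil comparison had 3 to 4 higher, 4 to 9 lower and a median of -0.01 to 0.03; the sides in EE had 0 and 0, and 0 to 0.05; EE in left ducts had 0 to 3 higher, 0 lower and 0 to 0.05; EE in right ducts had 3 to 6 higher, 3 to 7 lower and -0.04 to 0.02; and the interaction had 0 to 1 higher, 0 to 1 lower and -0.02 to 0.05. With the replicate block the oil counts were 3 higher and 9 lower and those of EE in right ducts 5 and 5. The other counts of members were as without it. The block joins samples of the same number across oil and EE, so it does not pair the sides within a treatment. The labels do not say whether the numbers pair the samples. All 6 oil samples correlated best with the sample of their own number on the other side (1 of 6 in EE). With 3 samples a group, SEs of 0.07 to 0.15 (log2) limit the two-group ratios.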
